A study of Mus musculus with 14 samples.

Results

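The ATP-binding cassette (ABC) transporter family was examined in lymphatic endothelial cells of mouse lymph nodes. Its members were the genes whose name on the array is Abc followed by a subfamily letter from a to g and a number, and 50 of the 34741 gene names on the array met that rule. They carried 74 probes. Where a gene had several probes, its probe was chosen by the highest mean log2 signal over all arrays, so signal level entered the choice of probe but not that of genes. Cftr, Tap1 and Tap2 are ABC genes whose names fall outside the rule, and they are described separately.

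Cells came from C57Bl/6 mice and from 2 lymph node sinuses, the medullary sinus on the side where lymph leaves the node and the subcapsular sinus that receives incoming lymph. The medullary FACS and subcapsular FACS groups held 2 samples each of 1200 cells, sorted by fluorescence after enzyme digestion, with antibodies to CD73, podoplanin and markers of blood lineages, and the medullary LCM and subcapsular LCM groups held 5 samples each of 50 cells, cut by laser capture from frozen sections stained for CD31 and for the macrophage antigen F4/80. No mouse carried a transgene, a mutation or a treatment according to the labels. The labels call the samples biological replicates but do not tie them to animals, whose age and sex are not given in the sources used here, and the sorted cells came from more lymph node sites than the dissected ones.

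ABC transporters are membrane proteins that use the energy of ATP to move lipids, sterols, drugs, peptides, bile salts or ions across a membrane, and their number and type differ from tissue to tissue. The a, c and g subfamilies include sterol and lipid exporters, the b and c subfamilies include drug and conjugate efflux pumps, the d subfamily serves peroxisomes and lysosomes, and the e and f subfamilies lack membrane-spanning parts and act on ribosomes. Abcb1a encodes one of the 2 mouse P-glycoproteins and is known for its abundance in the blood vessel endothelium of the brain, where it returns drugs to the blood.

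Each level below is that of 1 probe, so the probes behind the main results are shown first. For each, a stretch of 30 bases of the 60-base probe is given, 5′ to 3′, and capitals mark bases that lie in a run of 15 bases also found, on either strand, in a RefSeq promoter window (build GRCm38.p6) of another gene. These capitals describe shared letters and not what hybridised.
Abcb1a: cagACATGGGCACCTGAGTTCAGATCCCTA
Abcb1b: TCCAGGCTGGAGCAAagcgctcaTGAGCTG
Abcc1: cctacttatgagcatcgtttcgtggagaag
Abca1: tccctttttgtagaaCATTTATATTTCCAT
Abcg3: cctCTGAACATTAATAATtatactcgtgga
Abcg2: cctggcttgtatgattattatcttcctcac
Abcg4 (brightest probe): TGTCCCCTCTTCCCAGATGACTCAAGTTTG
Abcg4 (RefSeq probe): tgtatctGCCCCAGGTTCTTCTcattacac

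In mm9, the build of the scanner files, the Abcb1a probe lies at chr5:8748075-8748134 on the plus strand and the Abcb1b probe at chr5:8865925-8865984, also on the plus strand. They have no run of 8 bases in common, and their longest shared run is 7 bases. The Abcb1a probe shared runs of 15 bases with 3 of the 32851 promoter windows and with 1 probe of another gene, Kat6b, and 27 of its 60 bases were covered. The Abcc1 probe (chr16:14474551-14474610, plus strand) and the Abcg2 probe (chr6:58642312-58642371, plus strand) shared none. Each of the probes for Abca1 (chr4:53043944-53044003, minus strand) and Abcg3 (chr5:105364855-105364914, minus strand) shared a run with 1 window. The brightest Abcg4 probe (chr9:44087862-44087921, minus strand) is annotated to an Ensembl transcript and shared runs with 53 windows (0.161%), of 52 genes, whereas no other member probe shared runs with more than 8 genes and 28 of the 74 shared none. That Abcg4 probe was above background on 14 arrays. The 2 probes designed on the Abcg4 RefSeq transcript were above background on 5 and 2 arrays, so the Abcg4 level below is that of a probe whose letters also occur elsewhere.

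A level is the log2 of the probe's processed signal minus the log2 75th percentile of its array, so 0 is the 75th percentile itself and 1 unit is a doubling. "Above background" means that the scanner software called the probe well above the local background. From 69.1% to 79.0% of probes were above background on the medullary FACS arrays, 66.3% to 77.8% on the subcapsular FACS arrays, 67.4% to 75.3% on the medullary LCM arrays and 50.8% to 69.0% on the subcapsular LCM arrays. Subcapsular LCM replicate 2 was the dimmest, at 50.8%. No spot was saturated. Of 18 lymphatic endothelial markers on the array, 11, 10, 9 and 5 were above background on every array of those groups, in the same order. Lyve1, Mmrn1, Ackr4, Foxc2 and Sema3d were above background on no medullary FACS array, and Flt4 and Foxc2 on no subcapsular FACS array. Markers of other cells were measured in all groups. Of 20 macrophage markers, 17 were above background on both medullary FACS arrays, 15 on both subcapsular FACS arrays, 16 on all 5 medullary LCM arrays and 14 on all 5 subcapsular LCM arrays, and of 15 B cell markers 13, 15, 15 and 14 were. In samples of this kind, fewer cells of a type and less RNA per cell cannot be told apart. Slide 1 held the subcapsular LCM samples and medullary LCM replicates 1 to 3, and slide 2 held the rest.

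Most members were measurable. Of the 50, 19 were above background on all 14 arrays, 36 on at least 7 arrays, and only Abca8b on none. Members above background numbered 33 and 44 on the medullary FACS arrays, 30 and 40 on the subcapsular FACS arrays, 36 to 42 on the medullary LCM arrays and 28 to 40 on the subcapsular LCM arrays. In subfamily a, 5 of 16 members were above background on every array. In b it was 2 of 10, in c 4 of 10, in d 1 of 4, in f 2 of 3 and in g 4 of 6, and Abce1, the sole member of e, was above background throughout.

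**Figure D1:**
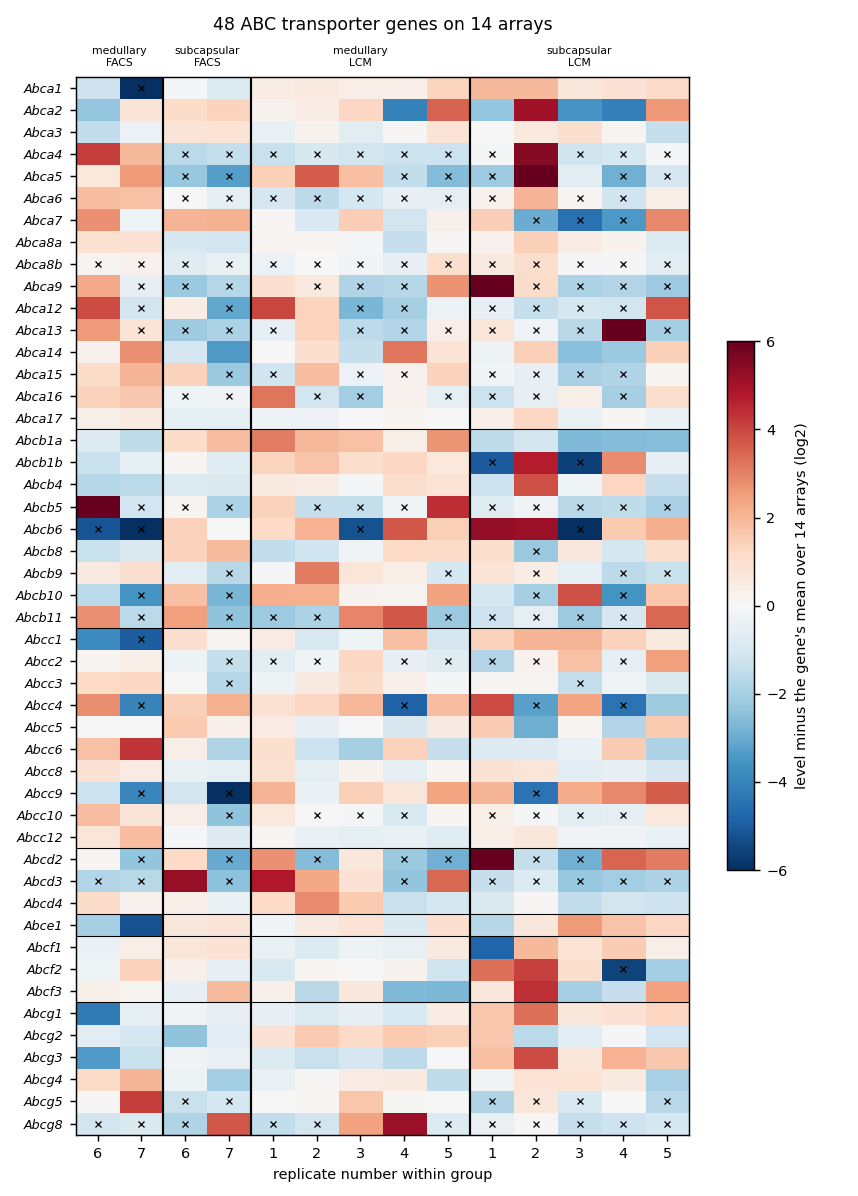
Levels of 48 of the 50 ABC transporter genes on 14 arrays, with each gene's mean over the arrays subtracted (log2; colours end at 6 units either way), arrays in columns by group and replicate number, and genes in rows by subfamily. A cross marks a probe not well above background. Abcb1a is high in the medullary LCM and subcapsular FACS columns, and Abca8b has a cross in all 14 columns.

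The first question was which members differ between the medullary and the subcapsular sinus. The fit used limma on all genes above background in enough arrays, and called a gene at a Benjamini-Hochberg adjusted p under 0.05. In LCM cells 38 members were tested and 1, Abcb1a, was called, against a background of 48 of 27353 genes (0.175%). In FACS cells 39 members were tested and 0 were called, as for all 27634 genes tested (0%). The sinuses did not overlap in 31 of those 39, or 79.5%, against 69.6% of all genes. At an unadjusted p under 0.05 limma gave 14 of the 39 members in FACS cells, or 35.9%, against 31.9% of all genes, and 6 of the 38 in LCM cells, or 15.8%, against 11.7%. The median difference over tested members was 0.67 in FACS cells and 0.05 in LCM cells, and over all genes tested 0.73 and 0.08.

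Abcb1a was the one member that passed the test between sinuses, and its difference had opposite signs in the 2 isolations. Its level was -0.52 and -1.26 in medullary FACS samples, against 1.36 and 2.08 in subcapsular FACS samples. In medullary LCM samples it was 3.32, 2.18, 2.01, 0.59 and 2.88, against -1.27, -0.83, -2.41, -2.35 and -2.29 in subcapsular LCM samples. Its probe was above background on all 14 arrays, and within each isolation the sinuses did not overlap. In order of group means, medullary LCM (2.20 ± 1.04) and subcapsular FACS (1.72 ± 0.50) overlapped each other at the top, and medullary FACS (-0.89 ± 0.52) and subcapsular LCM (-1.83 ± 0.73) overlapped at the bottom (SD, n = 5 for LCM and 2 for FACS).

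In LCM cells Abcb1a was 4.02 ± 0.63 higher in the medullary sinus (SE, log2, a 16.3-fold difference, limma adjusted p = 0.0407). In FACS cells it differed by -2.61 ± 0.66, which did not pass (limma adjusted p = 0.114). The difference between these 2 sinus differences was tested in 1 fit of the 14 arrays, and Abcb1a was called there, at -6.64 ± 0.97 (limma adjusted p = 0.00822). The call was lost without subcapsular FACS replicate 7 (-6.28, limma adjusted p = 0.0919), and the value lay between -7.04 and -6.27 over the 14 fits that left out 1 sample. It was the one member called of 44 tested, against a background of 383 of 29654 genes (1.29%). At an unadjusted p under 0.05 limma gave 12 of the 44 (27.3%, against 21.3% of all genes). The LCM result lies close to the threshold. With normexp background correction it was 3.23 (adjusted p = 0.0559), with quantile normalization 3.95 (0.0633), and in 8 of 10 fits that left out 1 sample the adjusted p was over 0.05, with differences between 3.74 and 4.43 over the 10.

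Batches did not turn the sign of the LCM difference. On slide 1 alone Abcb1a differed by 4.33 (limma adjusted p = 0.0307), and when slide rows were blocked by 3.93 (0.112). In row 1 the medullary levels were 0.59 and 2.88, against -1.27, -0.83, -2.41 and -2.35 in subcapsular samples, and in row 2 they were 3.32, 2.18 and 2.01, against -2.29 in the single subcapsular sample. In FACS cells all medullary samples lay in row 2 and all subcapsular samples in row 1, so row and sinus cannot be told apart there. Relative to the median of all genes, Abcb1a was 3.94 higher in LCM cells, and 3.39 to 3.96 higher under 4 other scalings. Of these, the percentile over another set of probes only shifts whole arrays, so it could not change this value.

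Markers of blood vessel endothelium and high endothelial venules, the vessels through which lymphocytes enter the node, are given beside Abcb1a. The summed level of 20 such genes, in multiples of the array's 75th percentile, was 15.2 to 62.7 in medullary FACS samples, against 102 to 260 in subcapsular FACS samples. It was 277 to 463 in medullary LCM samples, against 127 to 333 in subcapsular LCM samples. Within each isolation the higher range is that of the sinus in which Abcb1a was high, and the LCM ranges overlap. Between isolations this order did not hold. Subcapsular LCM samples, where Abcb1a was lowest, ranged from 127 to 333, against 102 to 260 in subcapsular FACS samples, where it was high. In LCM cells 3 of the 20 were called higher in the medullary sinus and 0 lower, against 0.168% of all genes called higher, with a median of 1.31 against 0.08 over all genes. These were Fut7 (6.76, limma adjusted p = 0.00385) and Chst4 (4.47, 0.0471), which encode enzymes that build the L-selectin ligands of high endothelial venules, and Ackr1 (5.44, 0.0163), a chemokine-binding receptor of venules. In FACS cells 0 of 19 tested were called by limma, with a median of 0.17 against 0.73 over all genes, and the lowest p were those of Plvap (-5.02, adjusted p = 0.0875) and Ly6c1 (-3.27, 0.1). In the test of the difference between isolations 2 of the 20 were called, both lower, against 0.739% of all genes, with a median of -2.93 against 0.52 over all genes. These were Ackr1 (-6.92, limma adjusted p = 0.0179) and Plvap (-5.41, 0.0251). Every one of the 20 was above background on at least 1 medullary LCM and 1 subcapsular FACS array, Sele was above background on no medullary FACS array and Selp on no subcapsular LCM array. What part blood endothelial RNA has in the Abcb1a values was not tested.

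Of 20 genes that accompany Abcb1a at blood barriers, 14 were tested in FACS cells and 16 in LCM cells, and limma called 0 in either sinus comparison. The medians were -0.33 and 0.59, against 0.73 and 0.08 over all genes. In the test of the difference between isolations 2 of 16 were called, both lower, against 0.739% of all genes, with a median of -1.02 against 0.52 over all genes. These were Bsg, the glycoprotein basigin (-6.74, limma adjusted p = 0.0288), and Sox17 (-6.39, 0.0382). Sox17, an endothelial transcription factor, had the lowest p in LCM cells (3.47, adjusted p = 0.16), followed by Cldn5, a tight junction claudin (-2.51, 0.3). In FACS cells these were Tfrc, the transferrin receptor (-9.38, adjusted p = 0.0647), and Lef1, a transcription factor of the Wnt pathway (-9.03, 0.0647). At an unadjusted p under 0.05 limma gave 5 of 14 in FACS cells, against 31.9% of all genes, and 5 of 16 in LCM cells, against 11.7%. Slc38a5 and Foxf2 were above background on no array of the subcapsular FACS and subcapsular LCM groups. Tfrc, Lef1 and Sox17 were above background on no medullary FACS array, and Sox17 on no subcapsular LCM array. The sizes of their differences therefore rest in part on signals not above background, and Tfrc and Lef1 entered the FACS fit only through the subcapsular group.

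Abcb1b, which encodes the other mouse P-glycoprotein, varied most among the subcapsular LCM samples (SD 4.59, n = 5). It was at -2.34 and -1.56 in medullary FACS samples, against -0.82 and -1.73 in subcapsular FACS samples, and the groups overlapped. In medullary LCM samples it lay between -0.37 and 0.71, and in subcapsular LCM samples it was -5.98, 3.73, -6.59, 1.84 and -1.53, with the lowest values in replicates 1 and 3 not above background. Its differences were -0.67 ± 0.69 in FACS cells and 1.90 ± 1.82 in LCM cells (SE, limma adjusted p = 0.5 and 0.736). Abcb4, the bile canalicular phospholipid floppase encoded beside them, differed by -0.84 ± 0.55 and 0.10 ± 0.95 (adjusted p = 0.315 and 0.98).

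**Figure D2:**
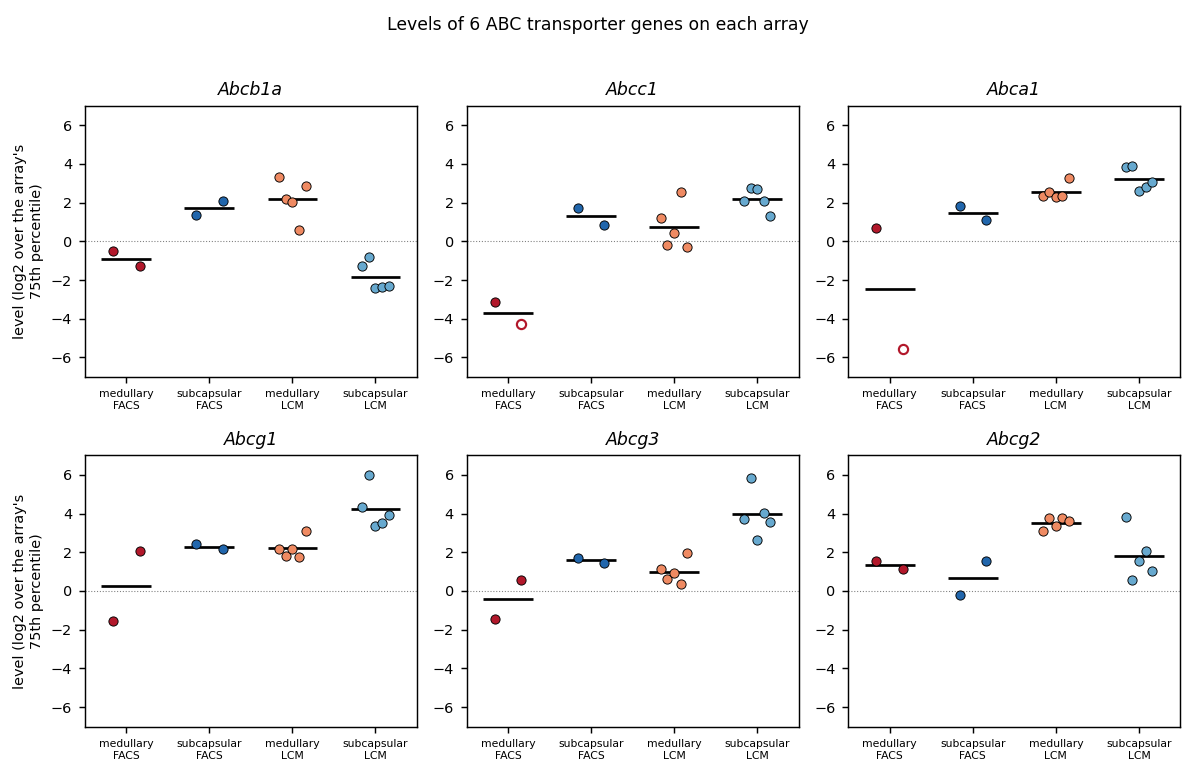
Level of 6 ABC transporter genes on each array (log2 over the array's 75th percentile) by group, with filled points above background, open points not, and a line at the group mean. Abcb1a separates the sinuses in opposite directions in FACS and LCM cells, and Abcg1 and Abcg3 lie higher in the subcapsular LCM samples than in the medullary LCM samples.

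Other members of subfamily b include transporters of mitochondria, lysosomes and the bile canaliculus. Of the 7 tested in FACS cells, Abcb1a included, 6 had a negative difference, and these counts were the same under 4 other scalings. Of the 8 tested in LCM cells 3 did, and 0 members of the subfamily other than Abcb1a were called by limma. Abcb6, a porphyrin transporter, had the lowest p in FACS cells. It was at -5.22 and -6.55, not above background, in medullary FACS samples, against 1.34 and -0.04 in subcapsular FACS samples, and the call was missed (-6.54 ± 0.87, limma adjusted p = 0.0679, and -3.00 with normexp background correction, 0.0715). At the main scaling it was at least 34.3-fold lower, and at least 21.3-fold without subcapsular FACS replicate 6. A bound of this kind takes the dimmest signal that was above background on an array where the probe's own was lower, and it belongs to the main background treatment. In LCM cells Abcb6 spread from -5.25 to 3.69 in medullary and from -7.10 to 5.24 in subcapsular samples. Abcb8, a mitochondrial transporter, was at -3.09 and -2.64 in medullary FACS samples, against -0.39 and 0.12 in subcapsular FACS samples (-2.73 ± 0.60, adjusted p = 0.101), and at a difference of -0.00 ± 0.84 in LCM cells. Abcb5 and Abcb11, the bile salt export pump, were above background in too few samples to be tested.

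Subfamily g held the other members whose sinuses did not overlap in LCM cells. Abcg1 exports cholesterol to high-density lipoprotein, and Abcg3 is a mouse relative of Abcg2. Together with Abcb1a they were 3 of 38 tested members without overlap, or 7.89%, against 3.09% of all genes. Abcg3 was at -1.45 and 0.59 in medullary FACS samples, against 1.72 and 1.47 in subcapsular FACS samples. In medullary LCM samples it was 1.12, 0.61, 0.94, 0.35 and 1.98, against 3.73, 5.84, 2.61, 4.03 and 3.55 in subcapsular LCM samples. It was the lower in the medullary sinus in both isolations, but neither difference was called, at -2.03 ± 0.91 in FACS cells (limma adjusted p = 0.202) and -2.95 ± 0.65 in LCM cells (0.135).

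Abcg1 showed the same order. It was at -1.57 and 2.07 in medullary FACS samples, against 2.43 and 2.16 in subcapsular FACS samples. In medullary LCM samples it was 2.17, 1.82, 2.18, 1.76 and 3.12, against 4.34, 5.99, 3.36, 3.52 and 3.94 in subcapsular LCM samples. The differences were -2.04 ± 1.41 in FACS cells (limma adjusted p = 0.336) and -2.02 ± 0.60 in LCM cells (0.26), and the FACS value was -0.22 without medullary replicate 6 and -3.86 without medullary replicate 7. The probes of Abcg1 and Abcg3 were above background on all 14 arrays.

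Macrophage markers are given beside these genes because macrophages line both sinuses. Their summed level over 20 genes was 584 to 617 in medullary FACS samples, against 379 to 380 in subcapsular FACS samples, and 386 to 547 in medullary LCM samples, against 636 to 2409 in subcapsular LCM samples. In LCM cells 17 of 18 tested had a negative difference, with a median of -0.76 against 0.08 over all genes, and limma called 0. At an unadjusted p under 0.05 it gave 7 of the 18, against 11.7% of all genes. The lowest p were those of Timd4 (-3.12, adjusted p = 0.0622), a receptor for dying cells, and Siglec1 (-4.54, 0.0843), the lectin of sinus macrophages. In FACS cells 10 of 18 had a negative difference, with a median of -0.14 against 0.73 over all genes, and limma called 0. At an unadjusted p under 0.05 it gave 5 of the 18, against 31.9% of all genes. The part of macrophage RNA in the Abcg1 and Abcg3 values was not tested.

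Abcg2, an efflux pump for drugs and urate, ran the other way in LCM cells. It was 3.08, 3.78, 3.35, 3.76 and 3.61 in medullary LCM samples, against 3.82, 0.58, 1.57, 2.08 and 1.03 in subcapsular LCM samples, where replicate 1 overlapped the medullary values. The difference was 1.70 ± 0.63 (limma adjusted p = 0.355). In FACS cells Abcg2 was at 1.57 and 1.13 in medullary samples, against -0.23 and 1.53 in subcapsular samples (0.70 ± 0.85, adjusted p = 0.561).

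The remaining g members were Abcg4, Abcg5 and Abcg8. On its brightest probe Abcg4 was at 0.88 and 1.78 in medullary FACS samples, against -0.54 and -2.27 in subcapsular FACS samples (2.73, unadjusted p = 0.0372, limma adjusted p = 0.142). Its RefSeq probes gave 2.14 and 0.89 in FACS cells, and 1.34 and 0.49 in LCM cells against -0.17 for the brightest. Abcg5, which pairs with Abcg8 in a sterol exporter, was at -4.33 and -0.26 in medullary FACS samples, against -5.72 and -5.46, not above background, in subcapsular FACS samples (3.30 ± 1.55, adjusted p = 0.214). The bound was at least 7.78-fold higher, but 1.89-fold without medullary FACS replicate 7. Its partner Abcg8 was above background on 3 of the 14 arrays and was not tested.

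In subfamily a, the sterol exporter Abca1 rested on 1 dim sample in FACS cells. It was at 0.67 and -5.57 in medullary FACS samples, the second not above background, against 1.83 and 1.12 in subcapsular FACS samples. In medullary LCM samples it was 2.36, 2.53, 2.31, 2.33 and 3.25, against 3.86, 3.88, 2.59, 2.78 and 3.07 in subcapsular LCM samples, and these overlapped. The differences were -3.92 ± 2.30 in FACS cells (limma adjusted p = 0.278, and -0.81 without medullary FACS replicate 7) and -0.68 ± 0.48 in LCM cells (0.617). The LCM value turned to 0.25 with quantile normalization, 0.05 with another set of probes behind the percentile and 0.26 in the authors' deposited values.

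Several lipid transporters of subfamily a were dim. Of 12 tested in FACS cells 8 had a positive difference, against 59.5% of all genes tested, a count unchanged under 4 other scalings, and limma called 0. Abca4, a flippase known from photoreceptors, was at -1.52 and -3.75 in medullary FACS samples, against -7.30 and -7.12 in subcapsular FACS samples, where it was not above background. Its level was higher by at least 6.15-fold, or 2.84-fold without medullary FACS replicate 6 (4.57 ± 0.97, adjusted p by limma 0.0974). The difference was 1.56 with normexp background correction (0.104), and the second probe, above background on 2 arrays, gave 4.64. Abca5, a lysosomal member, was at -3.56 and -1.68 in medullary FACS samples, against -6.50 and -7.51 in subcapsular FACS samples, where it was not above background. The bound was 6.21-fold, or 3.25-fold without medullary FACS replicate 7 (4.38 ± 0.93, adjusted p by limma 0.0984). The difference was 1.45 with normexp background correction (0.104), and the second probe, above background on 1 array, gave -0.88. Genes of this kind entered the FACS fit only through the group in which they were bright, so their counts describe the tested set and no more.

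Abca8a was above background on all 14 arrays, at -1.55 and -1.58 in medullary FACS samples, against -3.40 and -3.61 in subcapsular FACS samples (1.94 ± 0.55, limma adjusted p = 0.128). In LCM cells its difference was -0.53 ± 0.56 (adjusted p = 0.761). Abca6, which lies in the same gene cluster, had at least a 3.37-fold higher level in the medullary FACS samples (adjusted p = 0.128). Abca17, and Abca3, which loads lipid into lung surfactant, were also above background on all arrays. Abca17 differed by 1.04 ± 0.55 and -0.29 ± 0.48 in FACS and LCM cells, and Abca3 by -1.72 ± 0.68 and -0.07 ± 0.57, with adjusted p between 0.173 and 0.977. Abca8b, Abca9 and Abca13 were not tested in any comparison, and Abca12, a keratinocyte lipid transporter, not in FACS cells.

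The c subfamily holds conjugate pumps and the sulphonylurea receptors. Abcc1, which exports leukotriene C4 and glutathione conjugates, was at -3.11 and -4.25 in medullary FACS samples, the second not above background, against 1.72 and 0.85 in subcapsular FACS samples. In medullary LCM samples it was 1.18, -0.20, 0.43, 2.52 and -0.29, against 2.09, 2.73, 2.72, 2.08 and 1.29 in subcapsular LCM samples, and these overlapped. Neither sinus difference was called, at -4.96 ± 0.75 in FACS cells (limma adjusted p = 0.074) and -1.45 ± 0.64 in LCM cells (0.414).

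Abcc4, a pump for cyclic nucleotides and prostanoids, was at 0.62 and -6.19 in medullary FACS samples, against -0.75 and -0.05 in subcapsular FACS samples. In LCM cells it fell below background in medullary replicate 4 and in subcapsular replicates 2 and 4, and its differences were -2.39 ± 2.49 in FACS cells (limma adjusted p = 0.504) and 0.95 ± 1.84 in LCM cells (0.874). Abcc6, known from ectopic mineralisation, was at -0.37 and 2.14 in medullary FACS samples, against -1.76 and -3.96 in subcapsular FACS samples (3.75 ± 1.31, adjusted p = 0.152), and differed by 0.00 ± 0.85 in LCM cells. Abcc9, the sulphonylurea receptor of smooth muscle potassium channels, differed by -0.04 ± 1.38 in LCM cells (adjusted p = 0.993) and was not tested between sinuses in FACS cells. Of its channel partners only Kcnj11 was tested, at 3.00 in FACS cells (adjusted p = 0.132) and 0.02 in LCM cells (0.993).

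Among the peroxisomal members, Abcd3, a carrier of branched-chain and other acyl-CoAs, was above background in 4 of 5 medullary LCM samples and 0 of 5 subcapsular LCM samples. Its levels were -0.08, -2.59, -4.04, -7.25 and -1.46 in the medullary samples, against -7.15 to -5.71 in the subcapsular ones, and medullary replicate 4 overlapped them. The difference was 3.49 ± 1.15 (adjusted p by limma 0.303), and 0.78 with normexp background correction (0.681). The lower bound of the fold was 2.67, and it was 1.58 without medullary LCM replicate 1. Of 20 other genes of peroxisomal fatty acid oxidation, 19 were tested in FACS cells and 17 in LCM cells, and limma called 0 in either sinus comparison. The medians were -0.79 in FACS cells and 0.06 in LCM cells, against 0.73 and 0.08 over all genes.

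Abce1, which splits ribosomes for reuse, was at -0.12 and -3.37 in medullary FACS samples, against 2.54 and 2.65 in subcapsular FACS samples (-4.34 ± 1.28, limma adjusted p = 0.132). In LCM cells it differed by -0.63 ± 0.79 (adjusted p = 0.797), and that difference was 0.01 with quantile normalization. The other genes of ribosome recycling and translation initiation are given beside it. Of 19 tested in FACS cells 17 had a negative difference, with a median of -2.63 against 0.73 over all genes, and 13 of 18 did in LCM cells, with a median of -0.82 against 0.08, and limma called 0 in both. In FACS cells the lowest p were those of Eif3a (-6.47, limma adjusted p = 0.0647) and Etf1 (-6.80, 0.0687), an initiation and a termination factor. Neither was above background on a medullary FACS array, so the sizes of these differences rest on signals not above background. Abcf1, Abcf2 and Abcf3 differed by -0.83 to 0.67 in FACS cells and by -2.03 to -0.25 in LCM cells, with adjusted p of 0.359 or more.

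**Figure D3:**
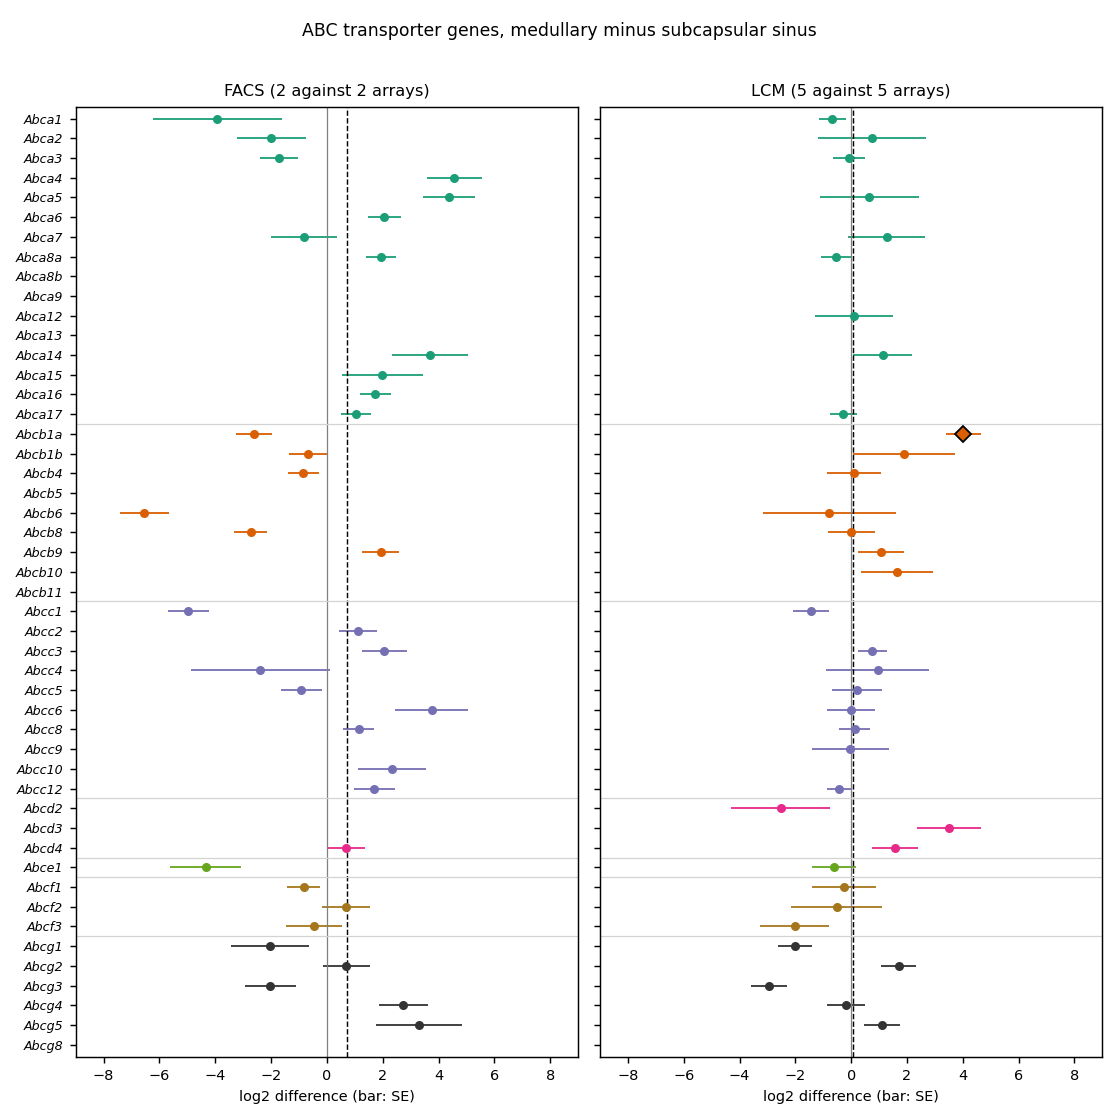
Medullary minus subcapsular difference (log2) of the tested ABC transporter genes drawn, with the SE, in FACS cells on the left and LCM cells on the right, coloured by subfamily. The diamond marks the call at an adjusted p under 0.05, Abcb1a in LCM cells at 4.02, and the dashed line is the median of all genes tested, 0.73 in FACS cells and 0.08 in LCM cells.

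The second question was how the isolation itself bears on the family. Sorted and dissected samples also differ in cell number, lymph node sites and, for the most part, slide, and these cannot be told apart. Between FACS and LCM cells, averaged over the sinuses, limma called 1 of 44 tested members, Abcc1, against a background of 1145 of 29654 genes (3.86%, and 2.04% lower in FACS cells). At an unadjusted p under 0.05 it gave 10 of the 44 (22.7%, against 16.1% of all genes). Abcc1 was lower in FACS cells, by -2.65 ± 0.51 (SE, limma adjusted p = 0.0106), with group means of -3.68 and 1.28 in the medullary and subcapsular FACS samples, against 0.73 and 2.18 in the medullary and subcapsular LCM samples. The medullary FACS samples lay lowest, and the subcapsular FACS samples lay within the range of the LCM samples. Without subcapsular FACS replicate 7 the difference was -2.43 and was not called (adjusted p = 0.0758), and on slide 2 alone, in medullary samples, it was -4.80 (0.221).

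Abca1 was lower in every FACS sample than in every LCM sample, the one member of the 44 without overlap (2.27%, against 1.02% of all genes). It narrowly missed the call at -3.38 ± 0.87 (limma adjusted p = 0.0501), was -1.82 without medullary FACS replicate 7 and -4.94 without medullary FACS replicate 6, and was called in both of those fits (0.0273 and 2.21e-05). Abcc9 differed by -4.35 ± 1.24 (adjusted p = 0.0787). It was at -2.40 and -5.01 in medullary FACS samples and at -2.19 and -7.19 in subcapsular FACS samples, against -1.51 to 1.27 in medullary LCM samples and -5.54 to 2.53 in subcapsular LCM samples. In this comparison limma called 2.04% of all genes lower in FACS cells, and the median over all genes was 0.17. Of 13 tested pericyte and smooth muscle markers 0 were called by limma, with a median of -0.04, and of 13 tested fibroblastic reticular cell markers 6 were called, all lower in FACS cells, with a median of -2.75. Their part in the Abcc9 and Abca1 values was not tested.

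Abcg3 and Abcg1 leaned the same way, at -1.89 ± 0.55 and -1.95 ± 0.64 (limma adjusted p = 0.0819 and 0.133), as did Abcg2 at -1.66 ± 0.52 (0.113). Of 20 macrophage markers 3 were called lower in FACS cells and 0 higher, against 2.04% of all genes called lower. Their median was -1.01 against 0.17 over all genes. Timd4 (-5.27, limma adjusted p = 9.1e-05) and Lyz2, a lysozyme (-3.33, 0.00514), were first among the 3 called. On the positive side the lowest p among members were those of Abca6 (1.09 ± 0.46, adjusted p = 0.262), Abca7, a phospholipid transporter (2.34 ± 1.08, 0.31), and Abcc6 (1.61 ± 0.76, 0.32). In the difference between the sinus differences, the lowest p among positive values were those of Abca4 (6.37 ± 1.77, limma adjusted p = 0.0865), Abca6 (3.30 ± 0.93, 0.0884) and Abca8a (2.47 ± 0.84, 0.134). Among negative values Abcb1a was followed by Abcc1 (-3.51 ± 1.01, 0.0958) and Abce1 (-3.71 ± 1.43, 0.174). Of the 8 members of subfamily b tested there, 7 had a negative value, and 6 did with normexp background correction. Abca4 and Abca6 entered this fit and that of FACS minus LCM only through the medullary FACS group, where they were bright. Neither was above background on any subcapsular FACS or medullary LCM array, so the sizes of their differences rest in part on signals not above background.

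**Figure D4:**
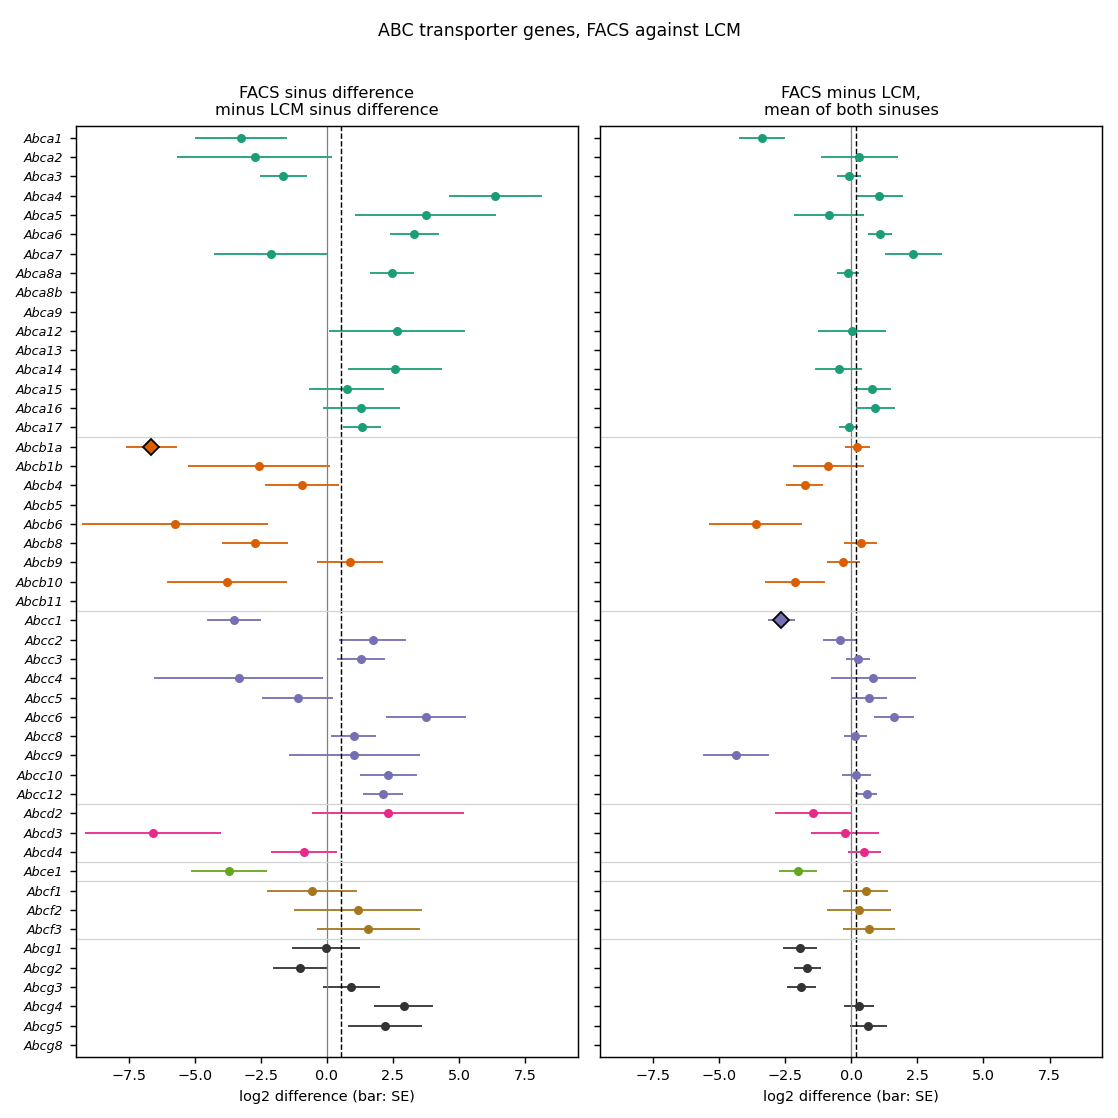
Difference between the sinus difference in FACS cells and that in LCM cells on the left, and FACS minus LCM averaged over both sinuses on the right (log2, with SE), for the tested ABC transporter genes drawn, by subfamily. Diamonds mark the calls, Abcb1a at -6.64 on the left and Abcc1 at -2.65 on the right, and dashed lines the median of all genes tested, 0.52 and 0.17.

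The genes that work with these transporters were examined as lists. At an unadjusted p under 0.05, limma gave 31.9% of all genes in FACS cells and 11.7% in LCM cells. In the sterol list it gave 5 of 16 tested in FACS cells and 5 of 19 in LCM cells. In the same order it gave 4 of 19 and 2 of 17 peroxisomal genes, and 7 of 17 and 2 of 19 haem genes. It gave 8 of 19 and 5 of 18 ribosome genes, 6 of 18 and 6 of 18 drug handling genes, and 4 of 14 and 1 of 14 peptide loading genes. In the sterol efflux and liver X receptor list, which regulates and partners Abca1 and Abcg1, limma called 0 of 16 tested in FACS cells and 0 of 19 in LCM cells between sinuses, and 12 and 11 of them had a negative difference. The medians were -1.17 in FACS cells and -0.68 in LCM cells, against 0.73 and 0.08 over all genes. Mylip, a ligase induced by liver X receptors, had the lowest p in FACS cells (-3.97, adjusted p = 0.0854) and Insig1, a sterol sensor, in LCM cells (-2.96, 0.267), and Mylip was the one member of this list called between isolations, lower in FACS cells (-3.10, 0.00324). In the list of haem synthesis and mitochondrial iron, the setting of Abcb6, Abcb8 and Abcb10, 12 of 17 had a negative difference in FACS cells and 10 of 19 in LCM cells. The medians were -2.24 and -0.42, against 0.73 and 0.08 over all genes. Of 18 tested genes of drug handling 0 were called in either sinus comparison by limma. The medians were -0.67 in FACS cells and 0.47 in LCM cells, against 0.73 and 0.08 over all genes. Between isolations limma called 3.86% of all genes, and 1 gene each in the haem, drug handling, ribosome and peroxisomal lists. These were Hmox1, a haem oxygenase (-3.27, adjusted p = 0.00111), Sult1a1, a sulphotransferase (-4.09, 0.029), Eif5, an initiation factor (-3.47, 0.0227), and Pex14, part of the peroxisomal import machinery (2.39, 0.0132). In the blood barrier list 1 was called as well, Bsg (-3.92, 0.00454). Pex14 was above background on no medullary FACS, medullary LCM or subcapsular LCM array, so it was tested only through the subcapsular FACS group.

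Tap1 and Tap2 form the ABC transporter that feeds peptides to major histocompatibility complex class I. Tap1 differed by -7.95 in FACS cells (limma adjusted p = 0.0647) and by 0.55 in LCM cells (0.902), and Tap2 by -2.62 (0.105) and -0.13 (0.97). Tap1 was above background on no medullary FACS array, so the size of its FACS difference rests on a signal not above background. Of 14 peptide loading partners, 13 had a negative difference in FACS cells and 10 in LCM cells, and limma called 0 in both. The medians were -1.72 and -0.83, against 0.73 and 0.08 over all genes. Psmb9, an immunoproteasome subunit (-5.20, adjusted p = 0.0658), and B2m, the class I light chain (-4.07, 0.0694), had the lowest p in FACS cells. In the test of the difference between isolations 1 of the 14 was called, Psmb9 (-4.43, limma adjusted p = 0.048), against 1.29% of all genes. Lower in FACS cells than in LCM cells 1 was called, B2m (-2.63, limma adjusted p = 0.000972), against 2.04% of all genes. Cftr, a chloride channel of the c subfamily, differed by 1.44 in FACS cells (adjusted p = 0.507) and was not tested in LCM cells.

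Other cell types were followed with further lists, in which up to 10 genes had an unadjusted p under 0.05 by limma. The most were B cell genes, 8 of 15 in FACS cells (31.9% of all genes) and 10 of 15 in LCM cells (11.7% of all genes). For T and NK cells limma called 0 of 16 in either sinus comparison, with medians of -1.06 in FACS cells and 0.74 in LCM cells. Over all genes the medians were 0.73 and 0.08, and these stand beside each sinus comparison that follows. The medians were -2.39 and -0.05 for 8 and 7 tested plasma cell genes, -0.47 and -0.54 for 12 and 11 dendritic cell genes, 1.06 and 1.40 for 8 and 8 erythroid genes, and 1.09 and 0.67 for 10 and 9 adipocyte genes, with 0 called in each. Of the B cell genes 14 of 15 had a negative difference in both isolations, with medians of -2.48 and -1.39, and 0 were called. Of lymphatic endothelial genes 0 of 14 and 0 of 15 were called, with medians of 0.73, the same as over all genes, and -0.62. Of pericyte genes 0 of 12 and 1 of 13 were called, against 0% and 0.175% of all genes. The gene called was Rgs4 in LCM cells (5.03, limma adjusted p = 0.0297). In the test of the difference between isolations 1 of 16 T and NK cell genes was called, against 1.29% of all genes. It was Tcf7, a T cell transcription factor (-5.45, limma adjusted p = 0.0424). Between FACS and LCM cells limma called 3.86% of all genes, 2.04% lower in FACS cells, and the median over all genes was 0.17. These values stand beside the counts that follow. All 15 B cell genes had a negative difference, with a median of -0.94, and limma called Fcer2a (-2.77, adjusted p = 0.00459) and Ralgps2 (-2.84, 0.0253). Of the 20 blood endothelial and high endothelial venule genes 3 were called lower in FACS cells, Plvap (-4.11, 0.000415), Enpp2 (-4.39, 0.00159) and Cxcl12 (-2.91, 0.0235), with a median of -0.41. Of 12 dendritic cell genes 2 were called higher, Itgax (2.67, 0.0134) and Ccr7 (2.82, 0.0412), and of 10 adipocyte genes 1, Plin1 (2.29, 0.035). Itgax was above background on no medullary FACS, medullary LCM or subcapsular LCM array, so it was tested only through the subcapsular FACS group. The part of these cell types in the values of the ABC genes was not tested.

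The choice of probe mattered for some members. Of the 18 with several probes, all probes of a gene had the same sign of the sinus difference in 11 in FACS cells and in 13 in LCM cells. Abcf1 gave -0.83 on the brightest probe and -5.53 on the other in FACS cells, and Abcc5, a cyclic nucleotide pump, ran from -1.98 to 2.03 over 4 probes. In LCM cells Abcb4 gave 0.10 on the brightest probe and 2.88 on an Ensembl-transcript probe above background on 5 arrays. Abcb1a, Abcb1b, Abcc1, Abca1, Abcg1, Abcg2 and Abcg3 have a single probe each.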

How the data were processed

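RNA was measured on 1-colour Agilent arrays in 14 samples. The deposited scanner files hold Cy3 signal intensity values that Agilent Feature Extraction 10.7.3.1 had background-subtracted, per the file headers. The authors' deposited value table holds log2 values of the same arrays, whose centring is not given in the sources used here (each column's median was 5.43), and served as an alternative. Outlier spots were left out, spots of a probe were averaged, and log2 processed signals were set relative to the array's 75th percentile. A gene was tested if its probe was well above background on 3 of 5 LCM arrays, or both FACS arrays, of a sinus.

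Each sinus comparison had its own fit of 10 LCM or 4 FACS arrays in limma 3.58.1 (R 4.3.3). The other 2 comparisons used all 14 arrays with weights by isolation. P-values were adjusted by Benjamini-Hochberg over all genes tested and called under 0.05. They measure the spread between samples, which are not tied to animals. Methods were tested on simulated data.

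Differences are named for called members, the 3 members of lowest p in each direction, the fixed members, and the 2 genes of lowest p in each of 20 other lists. Members outside that rule were chosen after their values were seen. Members and lists were chosen with earlier results of these data known. Alternatives covered background correction, scaling, filter, probe choice, fit, slide, slide row, replicate number and left-out samples. The number of arrays limits the precision. Some members and 1 probe sequence are counted in the totals but not reported here by name or letters. Where a probe lies in its gene (exon or untranslated region) is not given here.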

Additional observations from a re-analysis of the deposited data

Results flagged for a closer look

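Of 38 groups of 5 LCM samples examined for members with a named difference, 7 had 1 sample far from the other 4 by Dixon's criterion (above 0.71), where chance gives about 1 in 20. In the medullary LCM group, Abca1 was at 3.25 in replicate 5, against 2.31 to 2.53 in the others, and Abca8a was at -3.84 in replicate 4, against -2.55 to -2.29. Abcb6 was at -5.25 in replicate 3, against 1.14 to 3.69, and Abcc4 at -7.03 in replicate 4, against -1.29 to -0.19, and neither was above background there. In the subcapsular LCM group, the 3 samples that stood apart were all replicate 2, the dimmest array. Abca4 was at -0.20 there, against -6.88 to -5.78, and Abca5 at 2.09, against -7.09 to -4.88, whereas Abcc9 was at -5.54, not above background, against 0.96 to 2.53.

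The sinus difference of Abcb1a in FACS cells differed from that in LCM cells by -6.64 (limma adjusted p = 0.00822), with opposite signs in the 2 isolations and no overlap of the sinuses in either.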

How the results depend on the processing

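Over 29 alternative settings, 668 of 721 values kept their direction and their side of the threshold. Most of these values belong to differences that had not passed the test, for which staying uncalled counts as kept. The called Abcb1a difference in LCM cells was called in 8 of 23 alternatives. In settings other than a left-out sample, Abcb1a was called in 9 of 10 for the difference between isolations. Abcc1 was called in 9 of 10 such settings for FACS minus LCM. In LCM cells the count of called members was 0 with normexp background correction, quantile normalization, the deposited values, no filter, a trended robust variance, slide rows blocked and the replicate block, and lay between 0 and 1 when 1 sample was left out. The Abcb1a difference itself lay between 3.23 and 4.76, with adjusted p between 0.00539 and 0.201. In FACS cells the count was 1 with the trended robust variance (Abcb6) and 6 with all 14 arrays in 1 fit (Abca4, Abcb1a, Abcc1, Abcc6, Abce1 and Abcg4). For the difference between isolations it was 2 with quantile normalization and the deposited values (Abcb1a and Abcc1), 2 with the mean of all probes of a gene (Abca4 and Abcb1a) and 0 with the replicate block. With 1 sample left out it lay between 0 (without subcapsular FACS replicate 7) and 4 (without medullary FACS replicate 6). For FACS minus LCM it was 4 with normexp, 2 with a filter on every array of a group or the trended robust variance, and 0 on slide 2 alone, and 0 (without subcapsular FACS replicate 7) to 4 (without medullary FACS replicate 7) with 1 sample left out.

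In LCM cells Abca1 turned to 0.25 with quantile normalization, 0.05 when the percentile was taken over probes that every array detected and 0.26 in the deposited values. Abcc9 was 0.13, 0.69 and 0.13 under the same settings and -1.47 to 0.55 with 1 sample left out. Abce1 was 0.01 with quantile normalization and 0.10 with the other percentile, and Abcc4 was -0.07 with normexp. In FACS cells Abcg2 ran from -0.18 to 1.58 and Abcc4 from -5.79 to 1.02 with 1 sample left out. None of these had passed the test, and the cause was not tested. The median of all genes in LCM cells moved to 0.81 with the other percentile, which turned 32 of 38 members positive, against 20 in the values reported and 12 with normexp.

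Samples of the 2 sinuses share replicate numbers, but same-numbered samples did not deviate together (correlations of -0.019 to 0.005 over 5 LCM pairs and -0.011 in both FACS pairs). With the replicate block Abcb1a differed by 4.02 in LCM cells (limma adjusted p = 0.201). For FACS minus LCM no such block was possible because the numbers differ between isolations. Dim probes limit the family, since only 19 of the 50 members were above background on every array.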
